A study of Mus musculus with 20 samples.

Results

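Actin filaments form the cortex, growth cones and branched networks of neurons, and their assembly depends on a small set of abundant proteins. Beta-actin and gamma-actin are the cytoplasmic monomers, profilins charge monomers with ATP and deliver them to growing ends, and beta-thymosins hold monomers in reserve. Cofilins sever and depolymerize old filaments, while the ARP2/3 complex starts new branches. HuD (ELAVL4) is a neuronal RNA-binding protein of the ELAV family that attaches to U-rich stretches, mostly in 3′ UTRs, and is known for effects on mRNA stability and translation.

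The genes described here are 10 actin and actin-regulator genes, taken by symbol from the deposited tables: the actins Actb and Actg1, the profilins Pfn1 and Pfn2, the beta-thymosins Tmsb4x and Tmsb10, the cofilins Cfl1 and Cfl2, and the ARP2/3 subunits Arpc2 and Arpc5. Of these, 9 were among the 14924 genes counted in total and polysomal RNA (Tmsb4x had no row), 6 were among the 9621 genes with 3′ end counts (Cfl2, Pfn1, Tmsb4x and Arpc5 had no row), and 9 were among the 1435 genes with a HuD binding site (Tmsb10 had none). All 9 counted genes and all 6 genes with 3′ ends passed the filter on low counts.

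The 20 libraries came from the mouse line NSC-34, which has motor neuron features, and were compared between cells induced to make human HuD (HuD cells) and control cells. CRAC, in which RNA crosslinked to tagged HuD is purified and sequenced, had 3 HuD and 3 control libraries. Both the Trex-HuD line and the Trex control line, which carries the receptor without HuD, received tetracycline at 10 μg/ml for 24 h per the labels. RNA-Seq of total RNA and POL-Seq of polysomal RNA had 2 control and 2 HuD libraries each, and 3′ end sequencing had 3 and 3. For these, Trex-HuD cells had tetracycline for 48 h at 2 μg/ml, and the labels give no treatment for their control cells. The study's text names tetracycline for CRAC in its methods and doxycycline elsewhere. The HuD protein was a His-HA tagged transgene in engineered cells, and the study calls the RNA-Seq, POL-Seq and 3′ end replicates biological without saying what was separate, so p-values measure only the spread between these libraries.

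RNA-Seq and POL-Seq libraries held 21296012 to 36284728 counts and 3′ end libraries 12986862 to 15751036. Of 13 motor neuron or neuronal markers, 9 exceeded 1 CPM (counts per 1000000 of a library's scaled total) in total or polysomal RNA, with Prph, a neuronal intermediate filament, between 1007 and 1352 CPM, whereas Chat, which makes acetylcholine, stayed between 0.448 and 0.611 CPM. No marker of microglia or of fibroblasts and smooth muscle was counted, and the summed markers reached 21.1 to 37.8 CPM for astrocytes, 13.5 to 18.5 for oligodendrocytes and 61.4 to 76.1 for skeletal muscle. The astrocyte sum was mostly Slc1a2 (20.5 to 37.4 CPM), with Gfap at most 0.635 CPM and no row for Aqp4 and Aldh1l1. The muscle sum was mostly Myh3 (59.8 to 76.0 CPM), with Acta1 at most 2.09 CPM and no row for Myog and Ckm. Elavl4 counts were 87.8 ± 13.6 CPM in control and 224 ± 17.6 CPM in HuD total RNA (mean ± SD, n = 2 each). That change, 1.35 ± 0.15 on the log2 scale (± SE), missed the threshold over all genes (edgeR adjusted p = 0.0866) and passed it in DESeq2 (adjusted p = 3.85e-16). In 3′ end counts Elavl4 was lower in the libraries labelled HuD, 46.1 ± 12.8 against 64.9 ± 22.9 CPM (n = 3 each; log2 change -0.49, adjusted p = 0.921). It was lower in each of the 3 same-numbered pairs and passed with the replicate number as a block (-0.47 ± 0.10, edgeR adjusted p = 0.0306). The deposited 3′ ends are those of the mouse gene, so they do not check a human transgene.

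To show where HuD attached to these mRNAs, the most covered site of each bound gene but Arpc5 is printed, with the second most covered site of Cfl2 and the sites of Cfl2 and Actb with most deletions. For Cfl1, whose windows start at the same base, the window of 7 nt is printed, with 87 reads against 88 for the longer one. Each printed site has 11 nt on either side, 5′ to 3′, and the bound window in capitals. Sequences were read from Gencode vM21 transcripts (GRCm38). The authors took deletions in reads as marks of crosslinking, and a window lists the reads that covered it. Other sources of deletions were not tested.
Cfl2, window 638 nt after the stop codon: cuaaugucuuuGGUUUCCcgaugagugua
Cfl2, window 473 nt after the stop codon: cuggcagcacaGAUUUAAcacuauucguu
Cfl2, window 497 nt after the stop codon: ucguuaaaagcACUUUUUuuuuaaugcgu
Pfn1, window 35 nt after the stop codon: cguucccuuugGCUUUUGcacccccuucu
Cfl1, window 98 nt after the stop codon: gggggagccugUAUUUUUuuuuuuaacga
Actb, window 504 nt after the stop codon: ccuuaauacuuCAUUUUUguuuuuaauuu
Actb, window 265 nt after the stop codon: uguggcugaggACUUUGUacauuguuuug
Pfn2, window 1075 nt after the stop codon: auugugagaugGAUUUCCuuucgaauggc
Actg1, window 484 nt after the stop codon: guuucaguucuGGUUUCUucccuccugac
Arpc2, window 273 nt after the stop codon: cuuuuccaagcUGUUUGCuuugcaauaug
Tmsb4x, window 331 nt after the stop codon: aaucagagugcCAUUUUUuuuuguucaaa

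In every printed window a U triplet follows a base that is not U, the core the authors' scoring selected for. The windows differ in what surrounds the core. Those of Cfl1, Tmsb4x and the Cfl2 site at 497 nt open runs of U, those of Pfn2, Actg1 and the most covered Cfl2 site have a C right after the U triplet, and that of Pfn1 lies in a CU-rich stretch.

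HuD windows were listed for 9 of the 10 genes, 24 windows in all, and each was annotated to the 3′ UTR. HuD reads covered each, against 0 control reads at all 24. Both follow in part from how windows were chosen. Listing required at least 6 HuD reads, and the authors penalized locations with control reads. The contrast is therefore no separate evidence of binding. Among protein-coding genes with RNA-Seq counts, 9.87% had a window. Among those at or above the lowest of the 9 genes in control total RNA (144 CPM) the share was 29.6%, beside 8 of the 9. The replicates were pooled by the authors before deposit, so these values have no replicate error and no test was made.

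Cfl2, the muscle-type cofilin that neurons also express, was the most covered. It held 11 windows with a summed coverage of 1070 reads and 142 deletions, 54.9% of the coverage over the 10 genes, and ranked 30 of 1299 protein-coding targets by coverage and 12 by number of windows. Its windows lay between 81 and 763 nt after the stop codon, all in the first part of a 3′ UTR of 2308 nt, and neighbouring windows share reads. The strongest by coverage (chr12:54860481-54860487, minus strand) had 252 reads and 7 deletions, 2.78% (Wilson 95% interval 1.35 to 5.62%). By contrast the window at chr12:54860622-54860628 had 83 deletions in 100 reads, 83.0% (74.5 to 89.1%), the most deletions of any of the 24. Intervals cover counting error only. Over the windows of all protein-coding targets the median share of reads with a deletion was 19.4%.

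The other cofilin, Cfl1, the main non-muscle form, had a pair of windows that start at the same base (chr19:5493778-5493784, plus strand), with 87 and 88 reads and 20 and 3 deletions, and they count as 1 site when overlapping windows are merged. Its 3′ UTR is 349 nt long. The plot of windows along the 3′ UTRs shows the Cfl2 cluster against the single sites of most other genes.

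**Figure D1:**
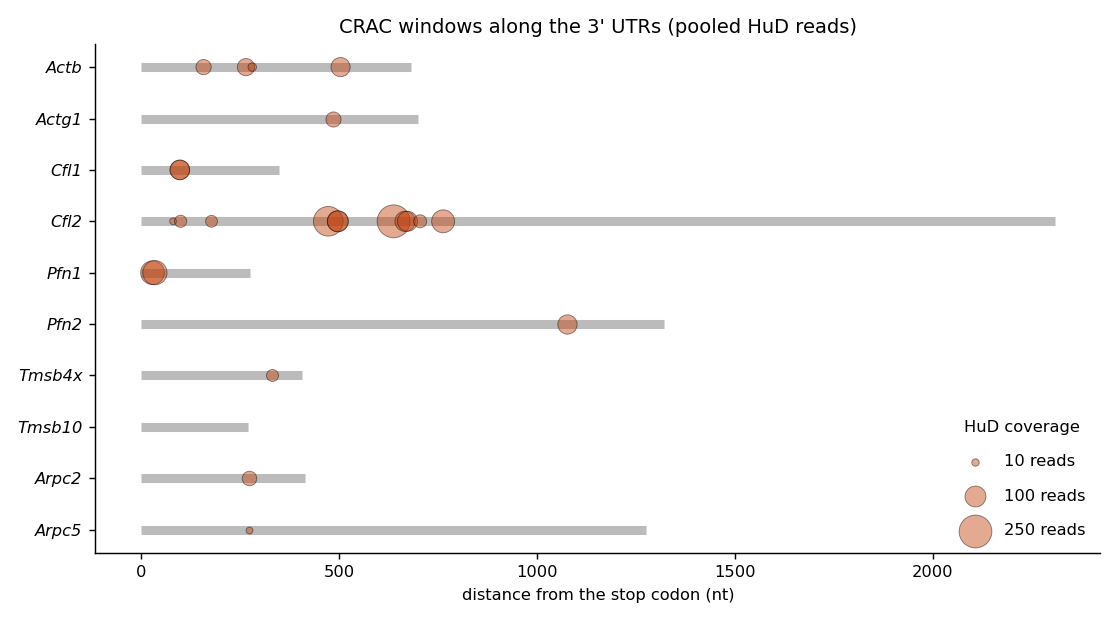
Positions of the 24 CRAC windows, as distance from the stop codon in nt, along the 3′ UTRs of the 10 genes (grey bars, Gencode vM21), with circle area set by the pooled HuD coverage. Cfl2 holds 11 windows, up to 252 reads, in the first 763 nt after the stop codon, Tmsb10 has none, and the remaining genes have 1 to 4.

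The profilins were bound at different places. Pfn1, the ubiquitous profilin, had overlapping windows 29 and 35 nt after the stop codon (chr11:70652083-70652089, minus strand, for the second) with 130 and 136 reads and 13 and 9 deletions. Pfn2, the profilin enriched in neurons, had 1 window in the last part of a 3′ UTR of 1322 nt (chr3:57842136-57842142, minus strand), with 85 reads and 3 deletions.

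Actb had 4 windows spread between 158 and 504 nt after the stop codon. The one at chr5:142903288-142903294 (minus strand) had 84 reads and 3 deletions, and the one at chr5:142903527-142903533 had 67 reads and 13 deletions, the most deletions of the 4. The other two had 52 and 14 reads. Actg1 had 1 window (chr11:120345900-120345906, minus strand) with 51 reads and 4 deletions. Both actins thus carried windows in 3′ UTRs of similar length, 683 and 700 nt, but Actb had the larger summed coverage, 217 against 51 reads.

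Among the bound genes with RNA-Seq counts, the ARP2/3 subunits had the lowest coverage. Arpc2, a core subunit, had 1 window (chr1:74268068-74268074, plus strand) with 47 reads and 3 deletions. Arpc5 had 1 window (chr1:152774594-152774600, plus strand) with 8 reads and 3 deletions, close to the lowest listed values of 6 reads and 3 deletions. Tmsb4x, the major beta-thymosin of many tissues, had 1 window (chrX:167207164-167207170, minus strand) with 31 reads and 13 deletions, 41.9% (Wilson 95% interval 26.4 to 59.2%).

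Over the 22 windows of 7 nt on these genes the base before the U triplet was G in 9, A in 7 and C in 6, whereas over all protein-coding targets, where 2411 of 2480 windows of 7 nt held A, C or G before a U triplet, C led in those 2411 with 40.9%, then A with 31.2% and G with 27.96%. Of the 24 windows 11 are from Cfl2, so that mRNA weighs heavily in the shares. Among the windows of 7 nt on the other genes G also led, by a narrow margin. The median 3′ UTR of the 12778 counted protein-coding genes with an annotated one was 1151 nt long and held 2.06 cores (A, C or G before UUU, sense strand, overlaps counted) per 100 nt, and 97.9% of them held at least 1 core. All 10 genes held a core in the 3′ UTR, from 4 in Tmsb10 (1.48 per 100 nt) to 82 in Cfl2 (3.55 per 100 nt), Pfn1 being densest with 12 in 274 nt (4.38 per 100 nt). A match to these letters is a description of the sequence and not a binding site.

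Coverage was then set beside RNA level. Levels compared between genes are given per length, as CPM per kilobase of annotated exon (FPKM) in control total RNA. Annotated exons include rarely used ones, which lowers the value of a gene whose main mRNA is shorter. Actb was highest with 794 ± 56.7 FPKM (SD, n = 2), rank 35 of 14857 genes, followed by Cfl1 with 503 ± 4.83 FPKM. Arpc2 (267 ± 18.7 FPKM) and Tmsb10 (254 ± 10.5 FPKM) followed and did not differ beyond their libraries, which overlapped. Pfn1 (166 ± 8.36 FPKM), Arpc5 (131 ± 5.14 FPKM), Actg1 (111 ± 12.1 FPKM), Pfn2 (54.3 ± 0.983 FPKM) and Cfl2 (44.2 ± 5.13 FPKM) came next, each with both libraries below those of the gene before. The least abundant of the 9 was thus the most covered by HuD reads. Summed coverage per FPKM was 24.2 for Cfl2, rank 60 of 1279 targets, beside a median of 1.48 over those targets. The ratio was 1.60 for Pfn1 and 1.57 for Pfn2, near that median, and 0.459 for Actg1, 0.348 for Cfl1, 0.273 for Actb, 0.176 for Arpc2 and 0.0613 for Arpc5, all below it.

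Reads may be shared between paralogs. The coding sequences of Actb and Actg1 were identical at 88.7% of 1128 positions, with a longest identical run of 62 nt. Cfl1 and Cfl2 shared 71.5% of 501 positions, Pfn1 and Pfn2 61.5% of 423, and Tmsb4x and Tmsb10 70.4% of 135, with longest runs of 10 to 12 nt. The study's methods name STAR's GeneCounts mode, which leaves out reads that map to several places, and do not say how such reads were treated in the 3′ end counts. Of these pairs the actins are the most alike. Likeness of any of the genes to other parts of the genome was not checked, so the certainty of their counts cannot be ranked. Exons of Cfl1 overlap those of Snx32 on the opposite strand, which had 3.90 CPM.

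Polysome association was compared first within control cells, to see which of these mRNAs were over- or under-represented on polysomes. None of the 9 genes passed the test between polysomal and total RNA (edgeR quasi-likelihood test, Benjamini-Hochberg adjusted p under 0.05), where 26 of 14906 genes did, 0.174% of those tested and all of them lower. In bulk RNA, a change in some cells and a change in every cell cannot be told apart. None of the 9 had an unadjusted p under 0.05, as did 1594 of all genes, and DESeq2 also called 0 of the 9. Their median log2 ratio was 0.048, beside 0.009 over all genes, and turned to -0.082 without RNA_control replicate 1, -0.023 without POL_control replicate 1 and -0.027 without POL_control replicate 2. Polysomal and total libraries did not overlap for Cfl1, which was higher on polysomes as were 18.9% of genes, and for Tmsb10, which was lower as were 20.1%. The plot of levels by library shows polysomal and total values of 8 of the 9 close together.

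**Figure D2:**
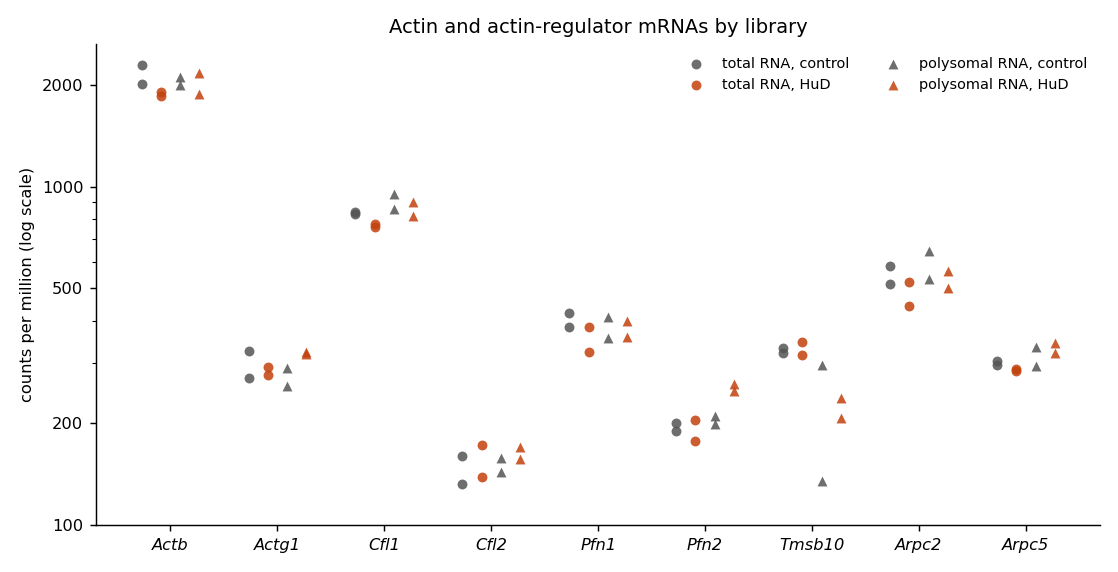
CPM (TMM-scaled, log axis) of the 9 counted genes in each of 8 libraries, circles for total RNA and triangles for polysomal RNA, grey for control and orange for HuD cells. Tmsb10 polysomal values lie below its total RNA values and range from 134 to 298 CPM in control cells, and Pfn2 polysomal values in HuD cells (249 and 261 CPM) lie above its other 6 libraries.

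Tmsb10 differed most. This beta-thymosin, with a reading frame of 44 codons that 0.29% of counted genes match or undercut, had 332 and 322 CPM in control total RNA and 298 and 134 CPM in control polysomal RNA. In HuD cells it had 318 and 348 CPM in total RNA and 238 and 207 CPM in polysomal RNA. Every polysomal library lay below every total RNA library, but the control polysomal pair lay far apart, the higher close to the total RNA values. The log2 polysomal over total ratio was -0.60 ± 0.28 in control cells (± SE; edgeR adjusted p = 0.466) and -0.58 ± 0.28 in HuD cells (adjusted p = 0.455), and 4.23% and 5.71% of genes had lower ratios. Without POL_control replicate 1 the control ratio was -1.28 (adjusted p = 0.000263), a fit in which the single remaining control polysomal library is assumed to vary like the other groups. Without POL_control replicate 2 it was -0.14 (adjusted p = 0.979). The HuD ratio passed without either control polysomal library, from the other arm (-0.58 in both fits). It did not pass with any other single library left out, with DESeq2 or with the replicate number as a block.

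In HuD cells 80 of 14906 genes passed between polysomal and total RNA (7 higher and 73 lower, 0.537%), again none of the 9. Their median log2 ratio was 0.139, beside 0.005 over all genes, and was 0.058 without POL_HuD replicate 2, 0.086 without RNA_HuD replicate 1 and 0.231 without RNA_HuD replicate 2. Groups that did not overlap were higher on polysomes for 4 of the 9 (Actg1, Arpc5, Cfl1 and Pfn2, where 25.3% of genes were) and lower for Tmsb10 (24.5% of genes).

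Pfn2 stood highest of the 9 in HuD cells. It had 177 and 204 CPM in HuD total RNA and 249 and 261 CPM in HuD polysomal RNA, beside 189 and 199 CPM in control total RNA and 210 and 199 CPM in control polysomal RNA. Both HuD polysomal libraries exceeded all others. The log2 polysomal over total ratio was 0.42 ± 0.09 in HuD cells (95% interval 0.21 to 0.63, edgeR adjusted p = 0.108) and 0.07 ± 0.09 in control cells (adjusted p = 0.76). The HuD value missed the threshold in the edgeR fit. It passed in DESeq2 (0.42, adjusted p = 0.0111), which called 1.6% of all genes. With the replicate number as a block it also passed (0.42, edgeR adjusted p = 0.0287), where 2.79% of all genes did. Leaving out 1 control polysomal library, from the other arm, took it past as well, with 1 library left in that group. It missed the threshold with another scaling of libraries (RLE) and without the filter. It also missed it without any single total RNA or HuD polysomal library, so whenever a library that forms the ratio was dropped. The plot of polysome association gives the 9 pairs of ratios.

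**Figure D3:**
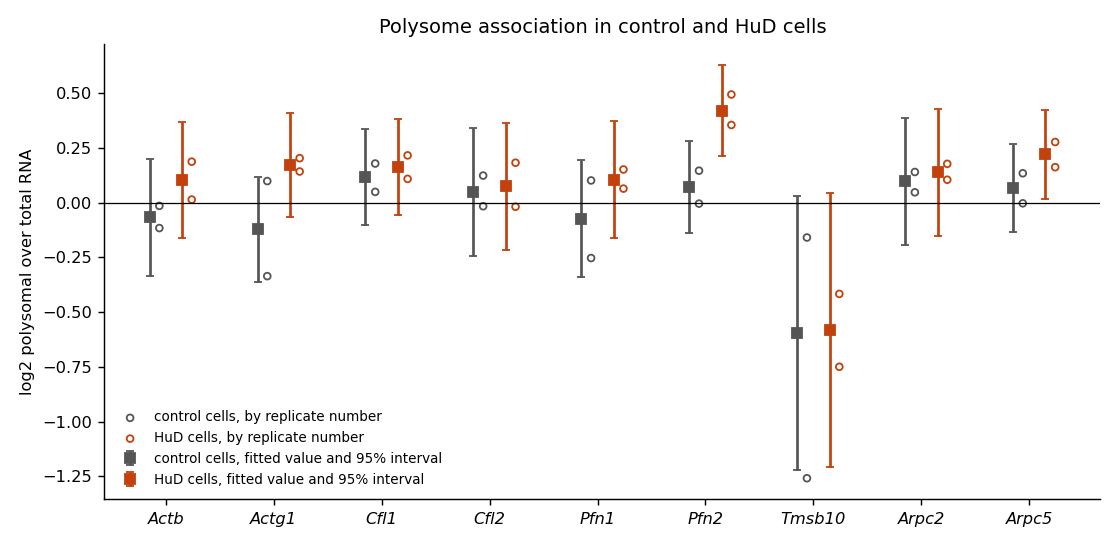
Log2 of polysomal over total RNA for 9 genes in control cells (grey) and HuD cells (orange): squares with bars are edgeR values with 95% intervals, and open circles are the ratios of libraries with the same replicate number. Tmsb10 is the only gene fitted below -0.5, in both kinds of cell, and Pfn2 in HuD cells has the highest value, 0.42.

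The change with HuD in total RNA was then compared, to see whether mRNA levels shifted. None of the 14906 genes passed, 0% of those tested, so none of the 9 did, and 394 of all genes but none of the 9 had an unadjusted p under 0.05. DESeq2 called 1 of all genes and 0 of the 9. Log2 changes of the 9 lay between -0.20 and 0.09 with a median of -0.067, beside -0.004 over all genes. The median was -0.132 without RNA_control replicate 1 and -0.138 without RNA_HuD replicate 2. Actb had 2013 and 2288 CPM in control and 1854 and 1902 CPM in HuD total RNA, a log2 change of -0.20 ± 0.12 (95% interval -0.46 to 0.07, adjusted p = 1.00). Groups did not overlap and were lower with HuD for Actb, Cfl1, Pfn1 and Arpc5, 4 of the 9 where 16.7% of all genes were, and higher for 0 of the 9, where 15.1% were. The gap was small for Pfn1, which had 384.3 CPM in the lower control library and 384.1 CPM in the higher HuD library.

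In polysomal RNA 0 of 14906 genes passed (0%), with 622 at an unadjusted p under 0.05 and 3 called by DESeq2, none of them among the 9. Pfn2 was the only one of the 9 with an unadjusted p under 0.05 (log2 change 0.32 ± 0.09, 95% interval 0.11 to 0.53, edgeR adjusted p = 0.969). Actg1 had 291 and 258 CPM in control and 320 and 324 CPM in HuD polysomal RNA, a log2 change of 0.23 ± 0.11 (interval -0.01 to 0.47, adjusted p = 0.969). Groups did not overlap for these 2, both higher, where 14.1% of genes were, and were lower for 0 of the 9, where 14.6% were. The Tmsb10 change was 0.04 ± 0.28 (interval -0.59 to 0.67), and became 0.73 (adjusted p = 0.0145) without POL_control replicate 1.

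Translation efficiency (TE), the polysomal over total ratio in HuD cells against that in control cells, was tested as an interaction over all 8 libraries, and asks whether HuD moved these mRNAs between the pools. No gene passed (0% of 14906, with 146 at an unadjusted p under 0.05 and 0 called by DESeq2), so none of the 9 did. All 9 log2 TE changes were above 0, between 0.01 for Tmsb10 and 0.35 for Pfn2, with a median of 0.152 beside -0.006 over all genes. The median was 0.060 without RNA_HuD replicate 1, 0.077 without RNA_control replicate 2, 0.092 without POL_HuD replicate 2 and 0.245 without POL_control replicate 1. These 9 values share the same libraries. Those of Cfl1, Cfl2, Tmsb10 and Arpc2 fell below 0 when some single libraries were left out, and those of the other 5 stayed above it. Pfn2 had a TE change of 0.35 ± 0.13 (95% interval 0.05 to 0.65, edgeR adjusted p = 1.00), higher than 94.9% of genes. Actg1 had 0.29 ± 0.15 (interval -0.04 to 0.63, adjusted p = 1.00), higher than 93.3% of genes.

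Among libraries with the same replicate number, the polysomal over total ratio of Pfn2 was 1.11 and 0.997 in control and 1.41 and 1.28 in HuD cells, that of Actg1 1.07 and 0.793 against 1.15 and 1.10, that of Actb 0.990 and 0.923 against 1.01 and 1.14, and that of Arpc5 1.10 and 0.998 against 1.21 and 1.12. In these 4 of the 9 the HuD pairs lay above the control pairs, where 18.6% of all genes did, and none of the 9 lay below, where 19.9% did. Cfl2, the gene with most HuD windows, had a TE change of 0.03 ± 0.18 (95% interval -0.39 to 0.44), and Tmsb10, the gene without one, 0.01 ± 0.39 (interval -0.87 to 0.90). With 2 libraries a group, TE changes of either sign within those bounds remain possible. The bounds are not detection limits, because a call must also pass adjustment over all genes. The Pfn2 change, whose interval excluded 0, did not. The 4-panel plot of HuD changes sets these values beside those of the 3′ ends.

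**Figure D4:**
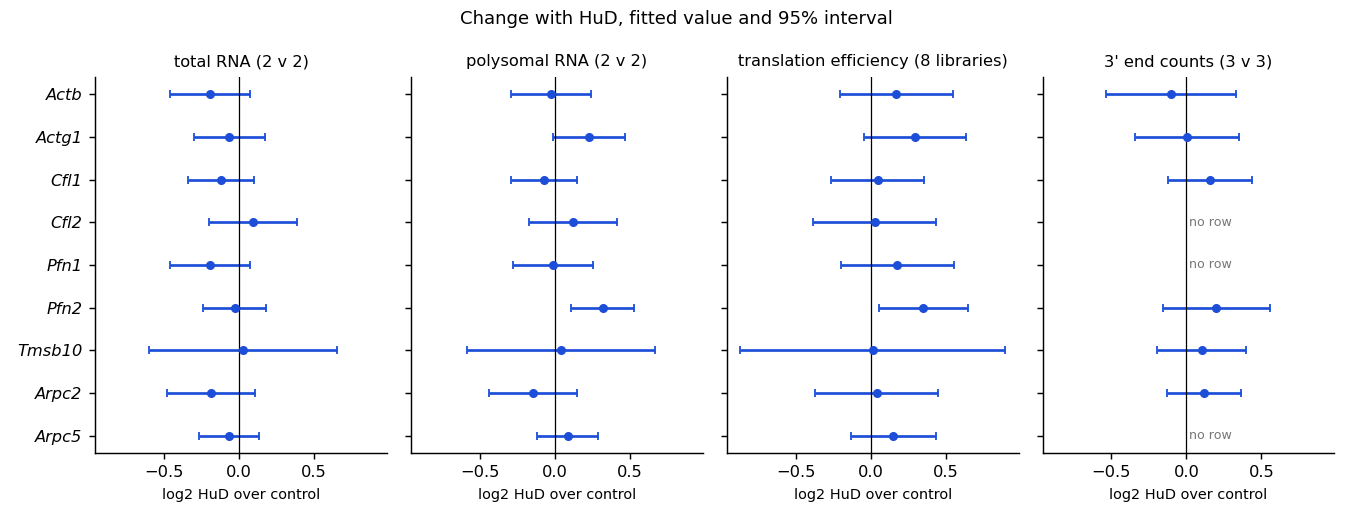
Log2 change with HuD and its 95% interval in total RNA, polysomal RNA, translation efficiency and 3′ end counts, for the 9 counted genes, from edgeR fits over all genes. Intervals include 0 except for Pfn2 in polysomal RNA and in translation efficiency, and neither passed adjustment over all genes.

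The 3′ end counts gave a separate set of libraries in which to compare levels. None of the 6 genes present passed between HuD and control, where 5 of 9621 genes did, 0.052%. The labels number these libraries and state no pairing. In the counts, deviations from group means correlated between same-numbered libraries (r of 0.4, 0.657 and 0.515). They also did between control library 3 and HuD library 1 (r = 0.328). With the replicate number as a block 217 genes (2.26%) passed, still none of the 6. Log2 changes lay between -0.10 for Actb and 0.20 for Pfn2, with a median of 0.109 beside 0.000 over all genes. The median was 0.017 without the second HuD library and 0.166 without the second control library. Groups overlapped for all 6, where 6.23% of genes were higher and 5.81% lower without overlap.

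Actb had 2798, 3759 and 2706 CPM in control and 2509, 3691 and 2430 CPM in HuD libraries 1 to 3. The second library of each group was highest, and the difference between numbers exceeded that between groups. The log2 change was -0.10 ± 0.19, and -0.11 ± 0.06 with the block (95% interval -0.25 to 0.03, adjusted p = 0.381). Actg1 had 1637, 2193 and 1641 CPM against 1699, 2102 and 1683 CPM, again with the second library highest, and a log2 change of 0.00 ± 0.15. Its 2 listed ends, 1 nt apart, held 50.1% and 49.9% of its counts, and reads within 10 nt of a site were counted, so that the areas of both sites overlap. With the ends merged, Actg1 had 1172 ± 209 CPM in control and 1175 ± 156 CPM in HuD libraries.

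Pfn2 had 140, 166 and 153 CPM in control and 171, 212 and 143 CPM in HuD libraries, with 2 of the 3 HuD libraries above every control library. Its log2 change was 0.20 ± 0.16 (95% interval -0.16 to 0.56, adjusted p = 0.957), and 0.18 ± 0.10 with the block (adjusted p = 0.329). Tmsb10 had 1313 to 1556 CPM in control and 1380 to 1747 CPM in HuD libraries, 0.10 ± 0.13 on the log2 scale, a narrower spread than in polysomal RNA. Cfl1 had only 111 ± 3.71 CPM in control and 124 ± 13.3 CPM in HuD libraries (SD, n = 3), though in total RNA it was second of the 9 with 835 ± 7.75 CPM (n = 2). Its single listed end is at chr19:5494029.

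**Figure D5:**
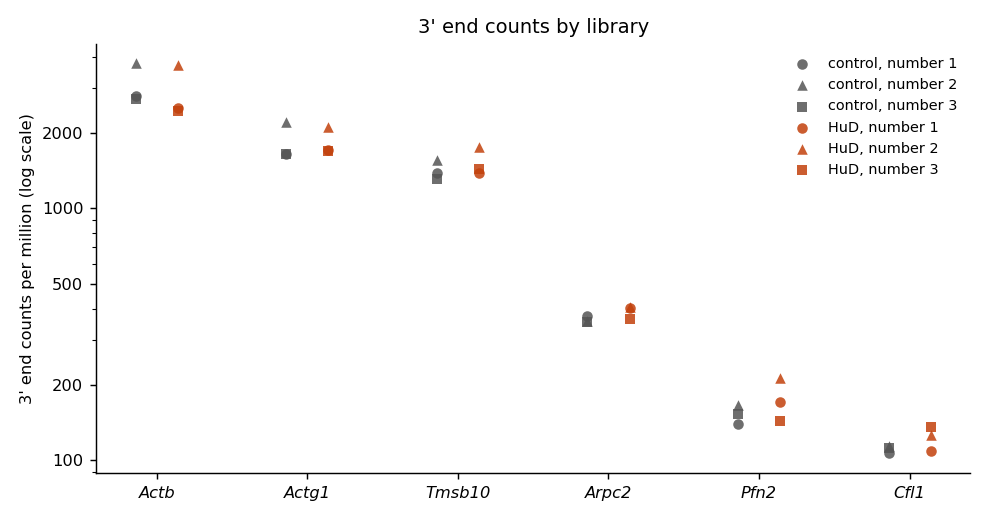
3′ end CPM (TMM-scaled, log axis) of 6 genes in 3 control (grey) and 3 HuD libraries (orange), with the marker shape giving the replicate number. Libraries numbered 2 are highest for Actb and Actg1 in both groups, and the groups overlap for every gene.

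Of the 6 genes with 3′ end counts, Arpc2 alone had listed ends more than 20 nt apart, 222 nt apart at the listed positions chr1:74267987 and chr1:74268209, and its HuD window lies between them, 135 nt before the distal end and starting 81 nt past the proximal one, so only the distal form holds it. With ends within 20 nt merged, the distal end took 86.5, 84.99 and 85.9% of Arpc2 counts in control and 85.3, 89.2 and 88.2% in HuD libraries. The means were 85.8 ± 0.761% and 87.5 ± 2.02% (SD, n = 3), and the groups overlapped. Site usage did not pass edgeR's test (adjusted p = 1.00, also with the ends merged and the replicate block). Over all genes 1 of 3317 passed (0.0301%), and none of the 4 genes here with 2 or more listed positions did. For Actg1, Pfn2 and Tmsb10 that test says little. Their listed ends are so close that the areas in which reads were counted overlap. With ends merged, only Arpc2 was tested. The total 3′ end count of Arpc2 was 361 ± 11.02 CPM in control and 391 ± 23.8 CPM in HuD libraries (log2 change 0.12 ± 0.11, adjusted p = 0.977).

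To place these genes in the wider pathway, 106 further actin genes were listed by role, from other actins and ARP2/3 subunits to formins, capping proteins, tropomyosins, crosslinkers and kinases, of which 83 were counted. In control cells 0 of the 83 passed between polysomal and total RNA, with 9 at an unadjusted p under 0.05 and a median log2 ratio of 0.060 (0.005 to 0.117 with single libraries left out, lowest without POL_control replicate 2 and highest without RNA_control replicate 2). In HuD cells 1 did, the ARP2/3 subunit Arpc1a, lower on polysomes. Arpc1a had 152 and 151 CPM in control total RNA and 107 and 97.1 CPM in control polysomal RNA, then 143 and 158 CPM and 98.9 and 104 CPM in HuD cells, so that polysomal and total libraries did not overlap in either. Its log2 ratio was -0.57 ± 0.09 in control cells (adjusted p = 0.0607, and 0.000105 by DESeq2) and -0.58 ± 0.09 in HuD cells (adjusted p = 0.03). That call also passed in DESeq2 (adjusted p = 2.54e-05) and with the replicate block (edgeR adjusted p = 0.00947). RLE scaling, no filter and leaving out either control polysomal library kept it too. It did not survive leaving out any 1 of the 4 total RNA libraries or either HuD polysomal library, while the ratio stayed between -0.66 and -0.50.

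Of the same complex, Arpc2 and Arpc5 had log2 ratios of 0.10 ± 0.13 and 0.07 ± 0.09 in control cells. By the smallest p-values in control cells, the next genes lower on polysomes were Brk1, a WAVE complex subunit (-0.30 ± 0.13, adjusted p = 0.464), and Evl, an Ena/VASP protein (-0.22 ± 0.10, adjusted p = 0.465). Those higher on polysomes were the kinases Rock2 (0.42 ± 0.14, adjusted p = 0.457) and Rock1 (0.54 ± 0.19, adjusted p = 0.462) and the filament-end capping protein Tmod2 (0.29 ± 0.11, adjusted p = 0.462). None passed in the fit of all libraries, whereas 20 of the 83 did without POL_control replicate 1, a fit that called 2145 of all genes.

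No gene of the wider list passed between HuD and control cells in total RNA, polysomal RNA or TE, where 4, 3 and 0 of the 83 had an unadjusted p under 0.05 and DESeq2 called 0 in each. Without POL_control replicate 1, which leaves that group with 1 library, some passed in polysomal RNA, where calls over all genes rose too. The median log2 TE change of the 83 was 0.014, and lay between -0.051 (without RNA_control replicate 2) and 0.080 (without POL_control replicate 2) with single libraries left out.

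In 3′ end counts 0 of 70 passed (5 at an unadjusted p under 0.05, and 1 called by DESeq2), and 4 passed with the replicate block, 2 lower and 2 higher, of which 3 are named here, after their values were seen. Capg, a filament-capping protein, was lower in HuD libraries, with 2.39, 1.89 and 2.26 CPM of the unscaled totals against 5.93, 5.04 and 7.94 in the controls (log2 change with the block -1.51 ± 0.20, edgeR adjusted p = 0.0051). Without the block its adjusted p was 0.112 in edgeR and 0.00081 in DESeq2, and 0.0842 to 0.537 in edgeR with single libraries left out. Fhod1, a formin, was also lower (-0.49 ± 0.11, adjusted p = 0.0428). Msn, which links filaments to the membrane, was higher (0.44 ± 0.08, adjusted p = 0.0247). Without the block, Fhod1 and Msn had adjusted p of 0.546 and 0.66 in edgeR and 0.251 and 0.415 in DESeq2. In total RNA, from other libraries, these changes were not seen. There the log2 changes were 0.05 ± 0.39 for Capg, -0.04 ± 0.12 for Fhod1 and -0.07 ± 0.15 for Msn. None of Actb, Actg1, Cfl1, Pfn2, Tmsb10 and Arpc2 passed in the 3′ end fit with the block, in which 2.26% of genes did.

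HuD windows were listed for 18 of the 83, 21.7%, with the largest summed coverage on the small GTPases Cdc42 (486 reads in 6 windows) and Rac1 (227 reads in 4) and on Wasf1, a WAVE subunit (293 reads in 3), all below the 1070 reads of Cfl2.

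The pattern of Actb across the 8 RNA-Seq and POL-Seq libraries was most like that of Ahcy (Pearson r = 0.97 of log2 CPM + 1), Dot1l (0.95) and Ccnjl (0.934) among 9701 genes of at least 10 CPM. Among the genes described here it was closest for Arpc2 (0.779), Cfl1 (0.665) and Pfn1 (0.661), low for Cfl2 (0.292), Actg1 (0.279) and Pfn2 (0.15), and below 0 for Arpc5 (-0.069) and Tmsb10 (-0.288). The 8 points share library preparation, fractions and conditions, so these values are a description without a test.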

How the data were processed

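Symbols, gene lists and tests were chosen with earlier results of these data known. The authors aligned RNA-Seq, POL-Seq and 3′ end reads with STAR 2.5.3a to GRCm38.p4 (Gencode M6) and deposited raw counts per gene, or per transcript 3′ end for reads starting within 10 nt of a polyadenylation site. For CRAC they used TopHat2 2.0.14 and deposited, for replicates pooled, the signal (read coverage), the counts of deletions, a combined p-value and a motif score for each window of 7 or 8 nt. The file lists windows with at least 6 reads and 3 deletions.

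From these, counts were tested with edgeR 4.0.16 (TMM, filterByExpr, quasi-likelihood, Benjamini-Hochberg adjusted p under 0.05) in 1 fit of 8 libraries with 4 groups and 1 fit of 6 for 3′ ends, and site usage with edgeR's exon-usage test and Simes' method, both in R 4.3.3. Printed CPM are TMM-scaled, and FPKM divide unscaled CPM by the exon length in kilobases inside the deposited gene. A transcript end listed for several transcripts was counted once. Different ends of a gene were summed, so reads near ends a few nt apart could enter more than once unless the ends were merged. Pooled windows listed for several transcripts were taken once, with the highest coverage. Their sequence was found 1 nt (plus strand) or 2 nt (minus strand) downstream of the listed interval, and printed positions are those of the sequence. Tests were tried on simulated data first. Genes named from the wider list are the 3 smallest p-values in each direction between polysomal and total RNA in control cells, and any passing between HuD and control cells in the fit without a block, where none did. Cdc42, Rac1, Wasf1, Capg, Fhod1 and Msn were chosen after their values were seen. A further gene called in 3′ ends with the block is not reported here. For 3′ ends, deviations from group means correlated between same-numbered libraries (r of 0.4, 0.657 and 0.515), and also between control library 3 and HuD library 1 (r = 0.328). The main fit of 3′ ends took no pairs, and the replicate block was an alternative to it. Alternatives were RLE scaling, no filter, a replicate block, DESeq2 1.42.0, leaving out each library, fewer libraries, and merged or single 3′ ends. Depth was 12986862 to 36284728 counts a library.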

Additional observations from a re-analysis of the deposited data

How the results depend on the processing

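None of the 9 genes tested passed in the edgeR fits of all libraries without a block, so alternatives could only add calls. The replicate block gave 1 of the 9 passing between polysomal and total RNA in HuD cells (Pfn2, edgeR adjusted p = 0.0287) and 1 of the wider list in control cells (Arpc1a, edgeR adjusted p = 0.026), as did DESeq2, with 1 and 1. Over all genes the block called 416 of 14906 in HuD cells (2.79%) and 41 in control cells (0.275%). DESeq2 called 239 (1.6%) and 67 (0.449%). Replicate numbers of RNA-Seq and POL-Seq mark only 2 libraries a group and nothing says what they share. Same-numbered libraries had correlated deviations (r of 0.188 to 0.387). With 2 libraries a group, differently numbered libraries must have the same r with opposite sign, so these values say little about pairing. The block changed no other call for the 10 genes. Leaving out 1 library each gave 0 to 1 of the 9 for polysomal against total RNA in control cells, 0 to 2 in HuD cells, 0 to 1 for HuD against control in polysomal RNA, and 0 to 20 of the wider list in control cells. The upper values came without POL_control replicate 1, and the value of 2 (Pfn2 and Tmsb10) also without POL_control replicate 2. These fits leave that group with 1 library. In the same comparisons they also called more of all genes than the fit of all libraries did, and the cause was not tested. Windows with the authors' p-value under 0.05 were 10 of 24, on 5 of the 10 genes instead of 9 (Actb, Cfl1, Cfl2, Pfn1 and Tmsb4x). Merging windows left 20 sites on 9 genes, and a minimum of 10 reads left 22 windows on 8. RLE scaling, no filter, fits on 4 libraries, and merged or single 3′ ends, with or without the block (the merged ends with block were chosen after seeing the data), changed no call for these genes. Upper bounds of the 95% intervals of the 9 TE changes ran from 0.36 to 0.90 on the log2 scale.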
